A study of Mus musculus with 9 samples.

Results

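The Myc, Max and Mxd network is a family of transcription factors that share a basic helix-loop-helix leucine zipper. It was described here in cultured mouse NPK prostate cancer cells through 10 genes: Myc, Mycn, Max, Mxd1, Mxd3, Mxd4, Mxi1, Mnt, Mlx and Mga. The network was selected on the readout of a single member, since Mxd4 was noted for its large rise in cells treated with MCTP, and the other 9 genes were taken as its relatives. The deposited table held all 10 of them among its 12842 genes. After a filter on low values (a value above 3.78 in 3 or more of the 6 libraries compared), 9 members could be tested in each comparison. Mycn failed this filter in every comparison.

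Max is the shared partner of the network. A Myc-Max pair binds the E-box CACGTG and activates transcription, and Myc drives ribosome production, metabolism and entry into the cell cycle. The Mxd proteins (Mxd1, Mxd3, Mxd4 and Mxi1) and Mnt compete with Myc for Max and repress the same sites through Sin3 and histone deacetylases. Mga pairs with Max inside a variant polycomb complex, and Mlx is a Max-like protein that pairs with the glucose-sensing factors Mlxip and Mlxipl as well as with Mnt and some Mxd proteins. In prostate cancer MYC is a frequently gained oncogene, and MYCN is known from its neuroendocrine form.

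NPK cells were isolated by the authors from lung metastases of NPK mice, a mouse model of prostate cancer, so every group shared the alleles of that model. RNA-seq libraries of polyadenylated RNA were made from control cells, from cells with shRNA silencing of the histone methyltransferase gene Nsd2 (shNsd2), and from cells treated with MCTP, with 3 libraries in each group. The labels number the MCTP compound 39, 40 and 41 in replicates 1, 2 and 3, and the source names given for shNsd2 replicates 1, 2 and 3 read Nsd2, Nsd3 and Nsd4. Groups follow the shared part of the titles. The paper names an NSD2 inhibitor MCTP-39 and a lentiviral shRNA against luciferase as its control vector. The labels give no dose, no time, no shRNA clone and no treatment of the control cells. Nothing in them says that the libraries of a group came from separate cultures, so each p measures the spread between these libraries only. Values are on the log2 scale of the deposited table, in which the libraries were already scaled to each other and weakly expressed genes were drawn together, so that fold changes of low genes are understated. The depth of the libraries is unknown.

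Nsd2, listed under its older symbol Whsc1, was read first because it checks the labels. Its values were 12.48, 12.43 and 12.42 in the control libraries, 11.56, 11.61 and 11.68 in the shNsd2 libraries, and 12.15, 12.21 and 12.07 in the MCTP libraries. All 3 shNsd2 libraries lay below all 3 MCTP libraries, which lay below all 3 control libraries. With shNsd2 the log2 fold change was -0.83 (SE 0.0408, limma adjusted p = 2.26e-06), a linear level of 0.563 times that of control. With MCTP it was -0.30 (SE 0.0537, limma adjusted p = 0.00562). This second call was lost when each library was corrected for the GC content of transcripts (log2 fold change -0.12, adjusted p = 0.0775; 3.08e-06 to 0.0775 over the alternatives). The last bases of Nsd2 overlap those of Nelfa on the opposite strand, and the strand used in counting is not given in the sources used here, so reads in the overlap cannot be told apart.

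MCTP replicate 2, the library labelled MCTP40, stood apart from the other libraries of its group. Its correlation over all genes was 0.9979 with replicate 1 and 0.9964 with replicate 3, against 0.9995 between these 2 libraries. Deviations from the group mean followed the GC content of transcripts in each library. Across genes, the Spearman correlation of the deviation with GC content was -0.59 in control replicate 1, -0.70 in MCTP replicate 2 and -0.65 in shNsd2 replicate 3, and lay between 0.36 and 0.68 in the other 6 libraries. Deviations cancel within a group, so a library that stands apart pushes the others of its group the opposite way. The values of those 6 libraries thus do not show a GC trend of their own. Fold changes followed GC content too, with a Spearman correlation across genes of 0.25 for shNsd2, 0.47 for MCTP and -0.24 for shNsd2 against MCTP. Genes are not independent replicates, and the part of GC content in the results below was not tested beyond the corrected values given beside them. Results that rest on MCTP replicate 2 are given with and without it.

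Markers of the labelled cell type were read next. Epithelial and luminal prostate genes were led by Krt8, with 16.21 to 16.70 in the control and MCTP libraries and 15.97 to 16.15 in the shNsd2 libraries. Hoxb13 was expressed in all 9 libraries (10.23 to 10.67), as was Foxa1 (11.13 to 11.53), whereas Epcam lay under the filter and Pbsn and Krt5 were not analysed here. The whole list (9 of 11 genes with values) summed to 17.56, 17.73 and 17.69 in control, 17.92, 17.70 and 18.06 with MCTP and 17.53, 17.47 and 17.36 with shNsd2. Vim was also high (16.99 to 17.65), and the mesenchymal list that it leads (7 of 7 genes) summed to 17.62, 17.70 and 17.70 in control, 17.94, 17.78 and 17.96 with MCTP and 17.47, 17.50 and 17.40 with shNsd2. The sum is carried by Vim, since the other 6 genes of the list had log2 fold changes below 0 with MCTP (list median -0.09). Luminal keratin RNA thus came with RNA of a mesenchymal intermediate filament. With shNsd2, 6 of 7 mesenchymal genes and 5 of 8 luminal genes tested were lower past the threshold, and none higher. The list medians were -0.16 and -0.19, and 24.8% of all genes were lower.

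Marker lists also moved with the groups. The summed level of the fibroblast list (4 of 6 genes with values, most abundant Col1a1 over the 9 libraries) was 8.57, 8.51 and 8.59 in control, 9.55, 9.48 and 9.66 with MCTP and 8.34, 8.42 and 8.34 with shNsd2. Most of its MCTP value came from Acta2, smooth muscle actin, which was 5.83, 6.03 and 5.98 in control and 8.91, 8.81 and 9.16 with MCTP. Col1a1 went the other way (log2 fold change -0.33 with MCTP, limma adjusted p = 0.0105, lower in 3 of 3), and the median of the 3 genes tested was 0.05. The basal list (3 of 4 genes, led by Krt15) summed to 12.64, 12.68 and 12.68 in control, 12.94, 12.68 and 12.94 with MCTP and 11.83, 11.74 and 11.70 with shNsd2. This sum follows Krt15, since Krt14 rose with shNsd2 (log2 fold change 0.78) and the list median was -0.09. Of 7 immune markers only the macrophage gene Cd68 had a value, and it stood at 6.50, 6.51 and 6.60 in control, 7.20, 7.15 and 7.44 with MCTP and 6.78, 6.78 and 6.72 with shNsd2. The single endothelial gene with a value, Cdh5, stayed under the filter (3.47 to 3.71). The neuroendocrine list (2 of 6 genes, led by Ncam1) summed to 10.83, 10.83 and 10.88 in control, 10.91, 10.95 and 10.82 with MCTP and 10.59, 10.61 and 10.67 with shNsd2. Their part in the results below was not tested, and in these bulk libraries fewer cells of a type and less RNA per cell cannot be told apart.

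Among the members, levels can be compared only per length. The value minus log2 of the annotated exon length in kb put Myc first in control cells, with a mean of 10.64, followed by Mlx (9.16), Mnt (8.82), Max (8.76), Mxi1 (8.54), Mxd3 (7.71), Mga (6.64), Mxd4 (5.87) and Mxd1 (5.30). Mnt and Max were the only neighbours in this order whose control libraries overlapped (8.71 to 8.90 and 8.74 to 8.77). Mycn stood at 2.52 to 2.56 before the correction for length in the 9 libraries, below the filter value of 3.78, so neither a fold change nor a place in the order was given. With MCTP, Mxd4 had a per-length mean of 7.26 and stood above Mga (6.20). The lengths are those of the exons joined over all annotated transcripts (8483 bases for Mxd4, 15340 for Mga), and the transcripts in use were not known.

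**Figure D1:**
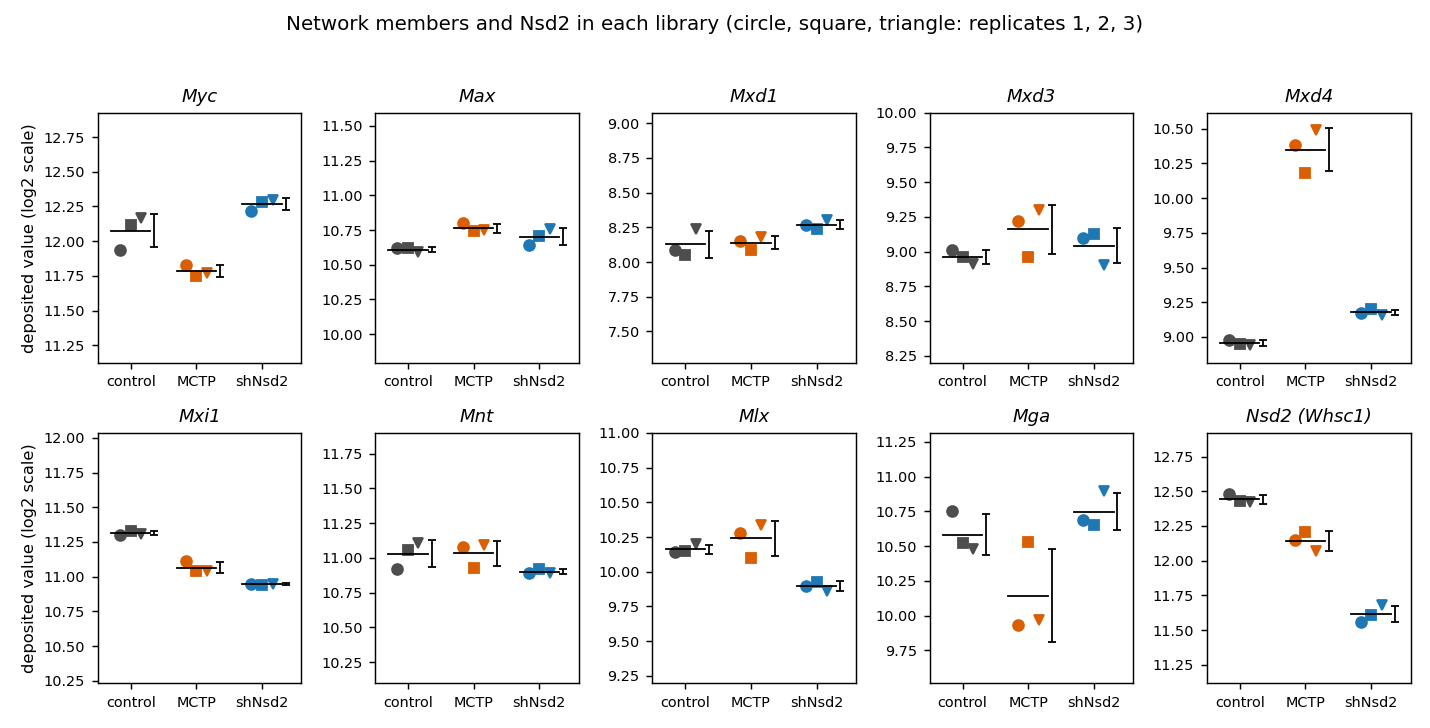
Values of 9 network members and Nsd2 on the log2 scale of the deposited table (vertical axes, each spanning the same range around its gene) in control, MCTP and shNsd2 libraries. Symbols are replicates 1, 2 and 3, horizontal lines group means and bars the SD of 3 libraries. Mxd4 ran from 10.18 to 10.49 with MCTP against 8.94 to 8.98 in control, and MCTP replicate 2 of Mga (10.53) lay with the control libraries.

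Myc, the activating partner of Max, went in opposite directions under the 2 conditions. Its values were 11.94, 12.12 and 12.17 in control, 12.22, 12.28 and 12.30 with shNsd2, and 11.83, 11.75 and 11.77 with MCTP. Each shNsd2 library lay above each control library and each MCTP library below. With shNsd2 Myc rose by a log2 fold change of 0.19 (SE 0.0584, limma adjusted p = 0.0264), 1.14 times the control level. That rise missed the threshold without shNsd2 replicate 2 (adjusted p = 0.0771) or without shNsd2 replicate 3 (0.0698), with a range of 0.00624 to 0.0771 over the alternatives, and measured 0.12 without control replicate 1 and 0.10 without the 3 libraries that stood apart by GC content. With MCTP Myc fell by 0.30 on the log2 scale (SE 0.0688, limma adjusted p = 0.0149), a level of 0.814 times control. The fall missed the threshold without control replicate 2 (adjusted p = 0.0663) or control replicate 3 (0.0606), with a range of 6.07e-07 to 0.0663. The direct comparison of shNsd2 with MCTP, in which the control libraries take no part, gave a log2 difference of 0.48 (SE 0.0464, limma adjusted p = 2.69e-04), and its adjusted p stayed between 2.89e-06 and 0.00359 under every alternative run.

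Max, the shared partner, differed little between the groups. It measured 10.62, 10.62 and 10.59 in control, 10.80, 10.74 and 10.75 with MCTP, and 10.64, 10.71 and 10.76 with shNsd2. All MCTP and all shNsd2 libraries lay above all control libraries, by at most 0.21 over the 9 libraries. With MCTP the log2 fold change was 0.16 (SE 0.0468, limma adjusted p = 0.0365). It lost the call with the replicate number as a block (adjusted p = 0.114) and when any library other than MCTP replicate 2 was left out, with adjusted p of 0.00528 to 0.140 over the alternatives. With shNsd2 it was 0.09 (95% interval 0.01 to 0.18, limma adjusted p = 0.0769), and this passed the threshold after median centring (adjusted p = 0.0400), after the GC correction (0.0256) and without shNsd2 replicate 1 (0.0495), within 0.0256 to 0.200 over the alternatives. The shNsd2 and MCTP libraries differed by -0.06 on the log2 scale (95% interval -0.18 to 0.05). An annotated gene (Gm47218) lies within Max on the same strand, and reads of any shared exons cannot be told apart.

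Mxd4, a repressor that competes with Myc for Max and is known from differentiating cells, is the member that chose the network, so its MCTP values are a description with no test. Its values were 8.98, 8.95 and 8.94 in control and 10.38, 10.18 and 10.49 with MCTP. No MCTP library came within 1 log2 unit of a control library, and the lowest was replicate 2. The log2 difference of the means was 1.39 (SE 0.0813), 2.62 times the control level, or 2.69, 2.33 and 2.89 times in the single libraries. It was the 12th largest of all rises among the 12216 genes tested in that comparison. Without MCTP replicate 2 the difference was 1.48, and it lay between 1.32 and 1.49 over the alternatives.

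In the shNsd2 libraries Mxd4 measured 9.17, 9.20 and 9.16. These were above all control libraries and below all MCTP libraries. The log2 fold change against control was 0.22 (SE 0.0385, limma adjusted p = 0.00177), 1.16 times the control level, and the adjusted p was 6.48e-05 to 0.0357 over the alternatives. This comparison uses the same control libraries as the one that chose Mxd4, so it is not independent of the choice. The difference between shNsd2 and MCTP was -1.17 and is again a description. An antisense gene of the reference annotation (Gm42846) lies within the end of Mxd4 on the opposite strand, and reads of the pair cannot be told apart.

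Mxi1, a Mxd relative that also represses Myc targets with Max, was lower under both conditions. Its values were 11.30, 11.33 and 11.31 in control, 10.95, 10.94 and 10.95 with shNsd2, and 11.11, 11.04 and 11.04 with MCTP. The groups did not overlap in any pair. With shNsd2 it fell by 0.36 on the log2 scale (SE 0.0318, limma adjusted p = 3.96e-05), to 0.777 times the control level, the member with the largest change in that comparison. With MCTP it fell by 0.25 (SE 0.0472, limma adjusted p = 0.00676). Both falls kept their call under each alternative run, with adjusted p up to 0.00120 and 0.0453. Between shNsd2 and MCTP the difference of -0.11 missed the threshold (SE 0.0437, limma adjusted p = 0.0694), with 0.0162 to 0.263 over the alternatives. It passed the threshold in one fit of all 9 libraries, after quantile normalization, after the GC correction, without MCTP replicate 2 and without the 3 libraries that stood apart. A pair of annotated genes on the opposite strand (AC133451.2 and Gm10197) lies over Mxi1, and their reads cannot be told apart from its own.

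Mxd1, the founding member of the Mxd repressors, and Mxd3, which is known from cells in S phase, gave smaller differences. Mxd1 measured 8.09, 8.05 and 8.24 in control, 8.15, 8.09 and 8.18 with MCTP, and 8.27, 8.24 and 8.30 with shNsd2. The shNsd2 and control libraries overlapped, shNsd2 replicate 2 and control replicate 3 both reading 8.24, and the test of the log2 fold change of 0.14 missed the threshold (SE 0.0547, limma adjusted p = 0.0581). It was passed after quantile normalization, median centring, the GC correction, without a mean-variance trend and without control replicate 3, with adjusted p of 0.0130 to 0.191 over the alternatives. With MCTP the log2 fold change of Mxd1 was 0.01 (95% interval -0.14 to 0.17). Mxd3 measured 9.01, 8.96 and 8.91 in control and 9.22, 8.96 and 9.30 with MCTP. Here MCTP replicate 2 alone lay among the control libraries. The log2 fold change of 0.20 missed the threshold with all libraries (SE 0.0917, limma adjusted p = 0.118) and was 0.30 without MCTP replicate 2 (adjusted p = 0.00151), 0.13 without MCTP replicate 3 (0.310) and 0.10 after the GC correction (0.200), with 2.72e-05 to 0.310 over the alternatives. With shNsd2 Mxd3 stood at 9.10, 9.13 and 8.90, with a log2 fold change of 0.09 (95% interval -0.06 to 0.23), or 0.16 without shNsd2 replicate 3 (adjusted p = 0.0282). It was 0.0427 without shNsd2 replicate 2 (0.661), 0.0589 without shNsd2 replicate 1 (0.561) and 0.0356 after the GC correction (0.602), with 0.00111 to 0.661 over the alternatives. Against MCTP, Mxd1 was higher in 3 of 3 shNsd2 libraries without passing the threshold (0.13, limma adjusted p = 0.0720), and passed after the GC correction (0.00789; 0.00789 to 0.223 over the alternatives). Mxd3 overlapped (-0.12, limma adjusted p = 0.394). Its difference was -0.22 without MCTP replicate 2 (adjusted p = 0.0243), -0.0863 without MCTP replicate 1 (0.632), -0.0426 without MCTP replicate 3 (0.764), -0.0435 without shNsd2 replicate 3 (0.788) and -0.0682 after the GC correction (0.400), within 0.0243 to 0.788. The end of Mxd3 overlaps Prelid1 on the opposite strand, and reads there cannot be told apart. Within Mxd1 lies an annotated gene on the same strand (Gm44292), with the same limit on reads of any shared exons.

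Mnt, the broadly expressed Max partner that is thought to balance Myc in most cells, was 10.92, 11.06 and 11.11 in control, 11.08, 10.93 and 11.09 with MCTP, and 10.89, 10.92 and 10.89 with shNsd2. Control and MCTP libraries overlapped throughout, with a log2 fold change of 0.00 (95% interval -0.16 to 0.17). The shNsd2 libraries were close together, at or below the lowest control library as printed, and the groups overlapped. The log2 fold change of -0.13 missed the threshold (SE 0.0508, limma adjusted p = 0.0653). It was -0.18 without control replicate 1 (adjusted p = 0.00233), -0.0851 without control replicate 3 (0.207) and -0.20 after the GC correction (0.00107), within 7.58e-05 to 0.207 over the alternatives. Against MCTP the shNsd2 libraries were lower in 3 of 3 (log2 difference -0.13, limma adjusted p = 0.0916), and -0.18 without MCTP replicate 2 (adjusted p = 0.00274; 0.00274 to 0.252). After the GC correction the difference was -0.0967 (limma adjusted p = 0.0334).

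Mlx, which connects the network to glucose-sensing factors, had its lowest values with shNsd2. It measured 10.14, 10.15 and 10.20 in control, 9.90, 9.93 and 9.86 with shNsd2, and 10.28, 10.10 and 10.34 with MCTP. The 3 shNsd2 libraries lay below the other 6. The log2 fold change with shNsd2 was -0.27 (SE 0.0388, limma adjusted p = 6.28e-04), to 0.831 times the control level. With MCTP the log2 fold change was 0.08 (SE 0.0707, limma adjusted p = 0.399), and 0.15 without MCTP replicate 2 (adjusted p = 0.0265) and 0.0281 without MCTP replicate 3 (0.793), with 0.0228 to 0.793 over the alternatives. The direct comparison of shNsd2 with MCTP gave -0.35 (SE 0.0701, limma adjusted p = 0.00686), which held under each alternative with adjusted p up to 0.0373. The end of Mlx overlaps Psmc3ip on the opposite strand, with the same limit on reads.

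Mga, the large Max partner of the polycomb complex, had an MCTP group whose libraries lay far apart. It measured 10.75, 10.52 and 10.48 in control, 9.93, 10.53 and 9.97 with MCTP, and 10.69, 10.65 and 10.90 with shNsd2. MCTP replicates 1 and 3 lay more than 0.5 below every control library, whereas replicate 2 lay among them. With MCTP the log2 fold change was -0.44 (SE 0.159, limma adjusted p = 0.0636). Without MCTP replicate 2 it was -0.63 (adjusted p = 9.53e-05), and without control replicate 1 it was -0.36 (0.184), with 1.31e-09 to 0.213 over the alternatives. After the GC correction it was -0.27 (adjusted p = 0.0491). GC content is low in the Mga transcript (42.2%, against 49.9% in Mxd4). With shNsd2 the log2 fold change of 0.16 missed the threshold (SE 0.0833, limma adjusted p = 0.138) and was 0.25 without control replicate 1 (adjusted p = 0.0119) and 0.0852 without shNsd2 replicate 3 (0.394), with 2.09e-04 to 0.432 over the alternatives. The GC correction gave 0.22 with shNsd2, which passed the threshold (limma adjusted p = 0.00266). Between shNsd2 and MCTP Mga differed by 0.60 (SE 0.159, limma adjusted p = 0.0190), with all shNsd2 above all MCTP libraries. That difference missed the threshold without shNsd2 replicate 3 (0.53, adjusted p = 0.0677) or MCTP replicate 1 (0.49, adjusted p = 0.0815), and was 0.80 without MCTP replicate 2, with 1.14e-07 to 0.0815 over the alternatives.

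**Figure D2:**
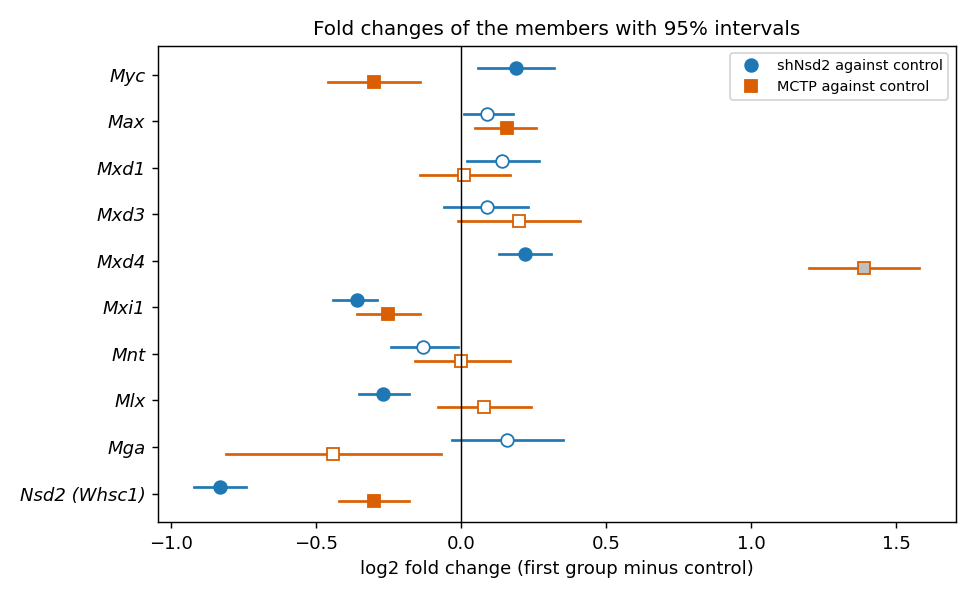
Log2 fold changes of 9 members and Nsd2 (horizontal axis) with 95% intervals, for shNsd2 (circles) and MCTP (squares) against the same control libraries. Filled symbols passed an adjusted p of 0.05, open symbols did not, and the grey square is Mxd4 with MCTP, which was not tested. Myc lay at 0.19 with shNsd2 and -0.30 with MCTP.

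With shNsd2, 4 of the 9 members tested passed the threshold, Myc and Mxd4 upward and Mxi1 and Mlx downward. Of all genes, 47.8% of the 12205 genes tested passed, 23.1% higher and 24.8% lower, so the share of the members was close to that of all genes. Mxd4 shares its control values with the choice, and 3 of 8 passed without it. Groups did not overlap for 5 members, or for 4 of 8 without Mxd4, against 57.2% of all genes. That number was 8 without the 3 libraries that stood apart, where 80.2% of all genes did not overlap. With MCTP, 3 of the 8 members other than Mxd4 passed, Max upward and Myc and Mxi1 downward, where 35.2% of 12216 genes passed, 18.0% higher and 17.2% lower. Groups did not overlap for 4 members, Mxd4 among them, against 50.6% of genes, and for 7 members without MCTP replicate 2, where 77.3% of genes did not overlap. Nothing is read from these MCTP shares, since that comparison chose Mxd4. Between shNsd2 and MCTP, 3 of 8 members passed (Myc and Mga higher with shNsd2, Mlx lower), where 43.2% of 12217 genes passed, 20.6% higher and 22.6% lower, and groups did not overlap for 7 members, or for 6 of 8 without Mxd4, against 55.0% of genes. Nothing is read from the 7, which hold Mxd4. An exact permutation test of 3 libraries against 3 cannot go below 0.1.

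The number of genes called with MCTP moved with every library left out. It was 4305 with all 6 libraries, 2366, 2162 and 2456 without control replicates 1, 2 and 3, and 2046, 7384 and 2842 without MCTP replicates 1, 2 and 3. The comparison of shNsd2 with MCTP called 5276 genes. It called 3571, 3429 and 3420 without shNsd2 replicates 1, 2 and 3, and 3391, 7781 and 4662 without MCTP replicates 1, 2 and 3.

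Of 5 further relatives of the network, Mlxip and Mycl had values. Mlxip (MondoA), the glucose-sensing partner of Mlx, measured 10.54, 10.58 and 10.61 in control, 10.68, 10.70 and 10.71 with shNsd2 and 10.58, 10.52 and 10.52 with MCTP. With shNsd2 it rose by a log2 fold change of 0.12 (SE 0.0349, limma adjusted p = 0.0187), a call lost with the replicate number as a block (adjusted p = 0.0675), without control replicate 2 (0.0604) or without shNsd2 replicate 2 (0.0771; 0.0121 to 0.0771 over the alternatives). Mycl, listed as Mycl1, measured 3.59 to 3.60 in control, 3.62 to 3.65 with MCTP and 3.91 to 3.96 with shNsd2. It passed the filter only through the shNsd2 libraries, where its level was high, so a difference was built into its selection and nothing is read from its call.

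Genes that Myc is known to activate were read in 3 lists of 88 genes in all. In the shNsd2 libraries 66 of the 88 passed the threshold, 64 higher and 2 lower, with a median log2 fold change of 0.24 against 0.00 over all genes tested. That is 75.0%, against 47.8% of all genes. In the MCTP libraries 31 of 88 passed, 7 higher and 24 lower, with a median of -0.02 against -0.01. The share was 35.2%, the same as that of all genes. This number was 14, 11 and 15 without control replicates 1, 2 and 3, and 11, 50 and 19 without MCTP replicates 1, 2 and 3. Without MCTP replicate 2 the 50 split into 23 higher and 27 lower. Directly compared, 57 passed and all 57 were higher with shNsd2 than with MCTP (median difference 0.28 against 0.01 over all genes). That is 64.8%, against 43.2% of all genes. With single libraries left out, 44 to 64 passed, of which 1 was lower without MCTP replicate 2 or MCTP replicate 3. No test of the lists as sets was run, and the first 2 comparisons share their control libraries.

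Ribosome biogenesis was the list with the most calls in shNsd2. Of 35 genes, 31 rose and 4 did not pass, with a median log2 fold change of 0.26, where 47.8% of all genes passed and 23.1% rose. Wdr74, a factor of the large ribosomal subunit, was 10.27, 10.45 and 10.39 in control and 10.94, 10.86 and 10.85 with shNsd2 (log2 fold change 0.51, SE 0.0502, limma adjusted p = 7.33e-05). The rRNA methyltransferase Nop2 rose by 0.48 (SE 0.0442) and Imp4, a part of the small subunit processome, by 0.47 (SE 0.0457). With MCTP 5 of the 35 rose, 9 fell and 21 did not pass (median 0.01, or -0.00 after the GC correction). The share past the threshold was near the 35.2% of all genes. Bop1 (0.39, SE 0.0922), Bysl (0.33, SE 0.0791) and Nop2 (0.28, SE 0.0764) rose. The nucleolar proteins Npm1 (-0.46, SE 0.138) and Ncl (-0.35, SE 0.110) fell, as did Wdr43 (-0.43, SE 0.102). Npm1 has processed copies in the genome that can share its reads. Its values in the MCTP libraries were 13.70, 14.15 and 13.65 against 14.44, 14.29 and 14.15 in control, so that replicate 2 reached the lowest control library. The number past the threshold with MCTP was 3, 3 and 5 without control replicates 1, 2 and 3, and 1, 22 and 7 without MCTP replicates 1, 2 and 3. The 22 were 12 higher and 10 lower. Quantile normalization called 5 higher and 5 lower. The median was -0.03 without control replicate 1 or MCTP replicate 3, and -0.01 without MCTP replicate 1. Calls with MCTP were lost for single left-out libraries: that of Ncl, Npm1 and Nop2 without any library other than MCTP replicate 2, of Bop1 and Bysl without control replicate 1 or MCTP replicate 1, of Wdr43 without control replicates 1 or 2 or MCTP replicate 1 (adjusted p of 0.0542 to 0.152). In the direct comparison 26 genes passed, all higher with shNsd2, with the treacle gene Tcof1 first (0.67, SE 0.0551, limma adjusted p = 1.33e-04). There 43.2% of all genes passed, and 20.6% were higher.

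Metabolic Myc targets followed a like division. With shNsd2, 23 of 33 rose and 2 fell, with a median log2 fold change of 0.23, where 23.1% of all genes rose and 24.8% fell. The pyrophosphatase gene Dctpp1 rose by 0.50 (SE 0.0491), the spermidine synthase gene Srm by 0.49 (SE 0.0616) and the transferrin receptor gene Tfrc by 0.47 (SE 0.129). The purine enzyme gene Paics (-0.23, SE 0.0329) and the glucose transporter gene Slc2a1 (-0.14, SE 0.0493) fell. Calls with shNsd2 were lost for single left-out libraries: that of Slc2a1 without control replicates 2 or 3 or shNsd2 replicates 1, 2 or 3, of Tfrc without control replicate 2 or shNsd2 replicate 3 (adjusted p of 0.0552 to 0.132). With MCTP 1 rose and 8 fell, with a median of 0.02 that turned to -0.03 after the GC correction and -0.00 after quantile normalization. These calls were a smaller share than the 35.2% of all genes that passed. The largest fall was in Shmt2, the mitochondrial serine hydroxymethyltransferase, with 13.34, 13.66 and 13.69 in control, 12.83, 12.60 and 12.87 with MCTP and 13.97, 13.89 and 13.88 with shNsd2 (MCTP log2 fold change -0.80, SE 0.110, limma adjusted p = 0.00193). Hexokinase 2 (Hk2, -0.40, SE 0.0559) and the mitochondrial factor Tfam (-0.38, SE 0.0748) also fell, and Nme1 rose (0.39, SE 0.0734). Calls with MCTP numbered 6, 4 and 6 without control replicates 1, 2 and 3, and 6, 18 and 7 without MCTP replicates 1, 2 and 3. The 18 without MCTP replicate 2 were 9 higher and 9 lower, and quantile normalization gave 3 higher and 6 lower. Leaving out MCTP replicate 3 turned the median to -0.03. Between shNsd2 and MCTP, Shmt2 differed by 1.15 (SE 0.0765, limma adjusted p = 5.96e-05), with no overlap of the libraries.

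Cell cycle targets of Myc passed the threshold with shNsd2 in 10 of 20, all higher, with a median log2 fold change of 0.13. The share was close to the 47.8% of all genes that passed, 23.1% higher and 24.8% lower. Cyclin E1 (Ccne1) rose by 0.41 (SE 0.0399), E2f2 by 0.37 (SE 0.0434) and the phosphatase gene Cdc25a by 0.35 (SE 0.0377). With MCTP 1 rose and 7 fell (median -0.09), where 35.2% of all genes passed. Ccne1 was the one that rose (0.36, SE 0.0579), with 9.26, 9.27 and 9.25 in control, 9.68, 9.53 and 9.65 with MCTP and 9.71, 9.69 and 9.62 with shNsd2. Ung, an enzyme of uracil repair, fell by 0.46 (SE 0.0526), Plk4, a kinase of the centriole, by 0.45 (SE 0.126) and the replication clamp Pcna by 0.34 (SE 0.0607). With MCTP, calls numbered 5, 4 and 4 without control replicates 1, 2 and 3, and 4, 10 and 5 without MCTP replicates 1, 2 and 3. A call with MCTP was lost for single left-out libraries: that of Plk4 without any library other than MCTP replicate 2 (adjusted p of 0.0582 to 0.113). In the direct comparison 13 of 20 passed, all higher with shNsd2, led by E2f2, Ung and Plk4 (0.61, 0.60 and 0.59). There 43.2% of all genes passed, and 20.6% were higher.

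Genes that Myc is known to repress went down more often than up with shNsd2: 9 of 14 tested fell and 2 rose, with a median log2 fold change of -0.18. Of all genes 24.8% fell and 23.1% rose. That balance turned to 3101 higher and 2779 lower after quantile normalization, and to 3132 and 2686 after median centring. The list then had 3 higher and 8 lower, and 2 higher and 8 lower. Cebpa, a factor of differentiation, fell by 0.68 (SE 0.0429), the integrin gene Itgb1 by 0.59 (SE 0.0465) and the cyclin-dependent kinase inhibitor gene Cdkn1b by 0.44 (SE 0.0547). Cdkn1a (p21) rose by 0.23 (SE 0.0477) and Klf4 by 0.22 (SE 0.0530). With MCTP 4 rose and 6 fell (median -0.11), where 35.2% of all genes passed. Cdkn1a was 12.38, 12.54 and 12.54 in control, 13.43, 13.29 and 13.56 with MCTP and 12.75, 12.71 and 12.70 with shNsd2, so that no MCTP library overlapped another group (MCTP log2 fold change 0.94, SE 0.0802, limma adjusted p = 2.37e-04). Cebpa went the other way than with shNsd2, rising by 0.71 with MCTP (SE 0.0856), and the direct difference was -1.39 (SE 0.0845, limma adjusted p = 4.31e-05). Gadd45b rose with MCTP by 0.46 (SE 0.0592). Ndrg1 (-0.62, SE 0.117), Itga6 (-0.48, SE 0.0651) and Cdkn1b (-0.40, SE 0.0852) fell.

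Targets of Mlx with the Mondo factors passed the threshold with shNsd2 in 10 of 12 tested, all lower, with a median log2 fold change of -0.27, where 24.8% of all genes were lower. The desaturase gene Scd1 fell by 0.76 (SE 0.0319), from 14.16, 14.16 and 14.18 in control to 13.40, 13.39 and 13.42. Txnip, an inhibitor of thioredoxin that is induced by glucose through Mlx, fell by 0.62 (SE 0.0383), and the lipid synthesis gene Acly by 0.44 (SE 0.0323). With MCTP 3 rose and 5 fell (median -0.09), where 35.2% of all genes passed. The median was -0.05 without MCTP replicate 2, -0.06 after median centring and -0.20 after the GC correction, which called 3 higher and 7 lower. Median centring called 3 higher and 3 lower, and quantile normalization 3 and 7. Txnip rose by 0.96 (SE 0.0567, limma adjusted p = 5.71e-05), with 11.90, 11.90 and 11.99 in control, 12.93, 12.81 and 12.95 with MCTP and 11.36, 11.29 and 11.31 with shNsd2. Its relative Arrdc4, which is controlled by the same factors, rose by 0.44 (SE 0.0491) and Tkfc, listed as Dak, by 0.36 (SE 0.0651). The 3 largest falls were in Scd1 (-0.37, SE 0.0519), Klf10 (-0.26, SE 0.0529) and Acaca (-0.25, SE 0.0486). Klf10 lost its call without control replicate 2 (adjusted p = 0.0552), where 5 of the 12 passed in place of 8. The direct difference, shNsd2 minus MCTP, was -1.58 for Txnip (SE 0.0521, limma adjusted p = 9.56e-06), -0.79 for Arrdc4 (SE 0.0427) and -0.40 for Scd1 (SE 0.0478), with 8 genes past the threshold, or 5 without shNsd2 replicate 2 or after quantile normalization. All 8 were lower with shNsd2, where 43.2% of all genes passed and 22.6% were lower.

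**Figure D3:**
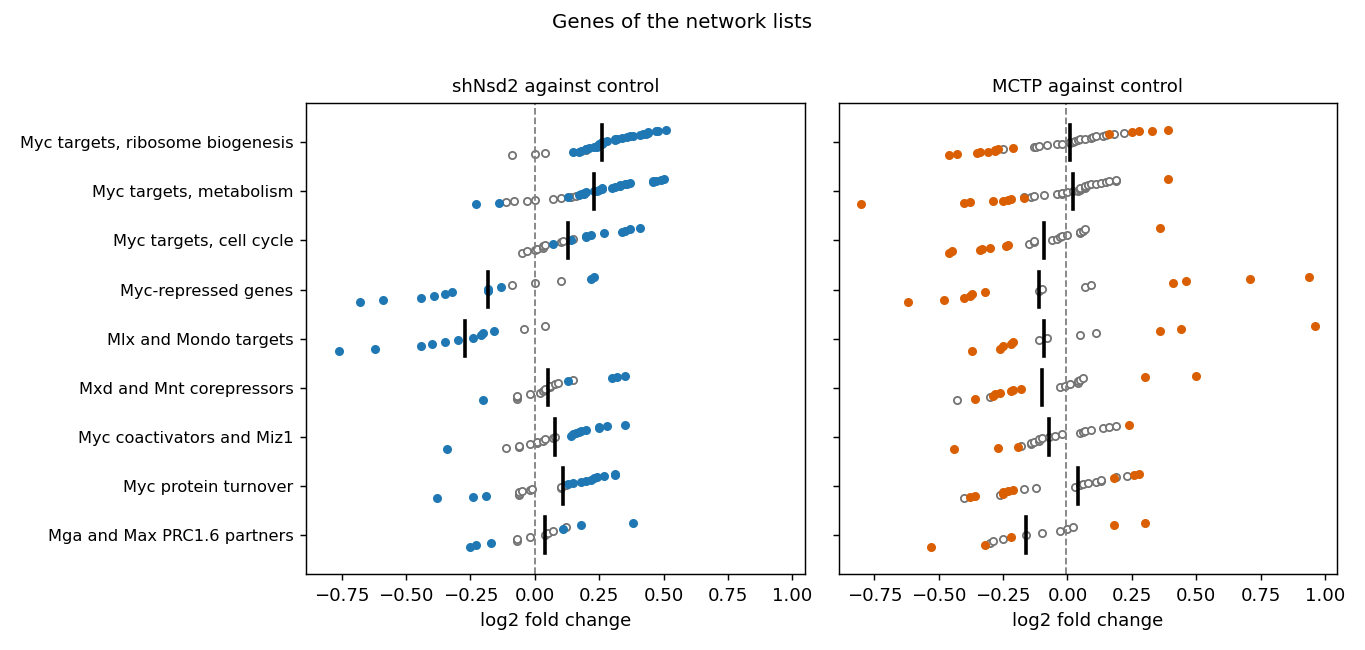
Log2 fold changes (horizontal axis) of the genes of 9 lists with shNsd2 and with MCTP against the same control libraries, each point a gene. Filled points passed an adjusted p of 0.05, black bars are list medians and the dashed line is the median of all genes tested. With shNsd2 the median was 0.26 for ribosome biogenesis and -0.27 for the Mlx and Mondo targets, and with MCTP 0.01 and -0.09 (-0.00 and -0.20 after the GC correction).

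Genes of partner proteins were read next. Among 18 corepressor genes that Mxd and Mnt proteins recruit, 4 rose and 1 fell with shNsd2 (median 0.05), a smaller share than the 47.8% of all genes. The Sin3 complex genes Suds3 (0.35, SE 0.0503) and Brms1 (0.32, SE 0.0437) rose, as did Rbbp4 (0.30, SE 0.0325), and Sin3b fell (-0.20, SE 0.0400). The 5 calls were 8 without control replicate 1, 9 after the GC correction and 10 without the 3 libraries that stood apart. At these settings 6018, 6683 and 7423 of all 12205 genes were called, against 5836 with all 6 libraries and no correction. The gap between the list and all genes was narrower there. With MCTP 2 rose, Brms1 (0.50, SE 0.0963) and Suds3 (0.30, SE 0.0853), and 7 fell (median -0.10), led by Arid4a (-0.36, SE 0.109), Ncor1 (-0.29, SE 0.0748) and Sap30 (-0.28, SE 0.0616). Of all genes 35.2% passed with MCTP. Corepressor genes past the threshold with MCTP numbered 2, 2 and 3 without control replicates 1, 2 and 3, and 2, 11 and 3 without MCTP replicates 1, 2 and 3. Calls with MCTP were lost for single left-out libraries: that of Ncor1, Suds3 and Arid4a without any library other than MCTP replicate 2, of Sap30 without control replicates 1 or 2 or MCTP replicate 1 (adjusted p of 0.0519 to 0.146).

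Of 21 Myc cofactors, 10 rose and 1 fell with shNsd2 (median 0.08), a share near the 47.8% of all genes. The acetyltransferase gene Kat2a rose (0.35, SE 0.0403) and its paralog Kat2b fell (-0.34, SE 0.0582), while Ruvbl2 (0.28, SE 0.0580) and Cdk9 (0.25, SE 0.0470) rose. With MCTP 1 rose, Paf1 (0.24, SE 0.0543), and 3 fell (median -0.07): Mycbp2 (-0.44, SE 0.107), Ccnt1 (-0.27, SE 0.0670) and Ruvbl1 (-0.19, SE 0.0610). These 4 calls compare with 35.2% of all genes, and were 9 in one fit of all 9 libraries and 10 after the GC correction. All genes called with MCTP rose as well, from 4305 to 5699 in the one fit and 5449 after the correction. Cofactor genes past the threshold with MCTP numbered 0, 0 and 1 without control replicates 1, 2 and 3, and 0, 13 and 3 without MCTP replicates 1, 2 and 3, the 13 being 6 higher and 7 lower. Quantile normalization called 3 higher and 3 lower, and median centring 2 and 2. Calls with MCTP were lost for single left-out libraries: that of Ruvbl1 without any library other than MCTP replicate 2, of Ccnt1 and Paf1 without control replicates 1, 2 or 3 or MCTP replicate 1, of Mycbp2 without control replicates 1 or 2 or MCTP replicate 1 (adjusted p of 0.0502 to 0.145).

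Genes that set the stability of Myc protein were read because RNA does not show protein levels. With shNsd2, 10 of 22 rose and 3 fell (median 0.11), where 47.8% of all genes passed. The 13 calls were 8 in one fit of all 9 libraries, where all genes called fell from 5836 to 4320. The kinase gene Gsk3b, whose product marks Myc for degradation, fell by 0.38 (SE 0.0434), while Gsk3a (0.27, SE 0.0411), Axin1 (0.31, SE 0.0411) and Aurka (0.31, SE 0.0381) rose. The kinase gene Pim1 (-0.24, SE 0.0589) and the deubiquitinase gene Usp28 (-0.19, SE 0.0391) fell. With MCTP 3 rose and 6 fell, with a median of 0.04 that was -0.05 after the GC correction. Otub1 (0.28, SE 0.0874), Pim1 (0.26, SE 0.0721) and the ubiquitin ligase gene Fbxo32 (0.18, SE 0.0344) rose, and Usp37 (-0.38, SE 0.0875), Usp28 (-0.36, SE 0.0611) and Gsk3b (-0.25, SE 0.0842) fell. Of all genes 35.2% passed, and the 9 calls were 4 with the replicate number as a block, where all genes called fell from 4305 to 3399. Turnover genes past the threshold with MCTP numbered 3, 3 and 4 without control replicates 1, 2 and 3, and 3, 18 and 4 without MCTP replicates 1, 2 and 3. Without MCTP replicate 2 these were 9 higher and 9 lower, and 4 rose and 4 fell after quantile normalization or median centring. The median was -0.01 without MCTP replicate 3. Calls with MCTP were lost for single left-out libraries: that of Usp37 without control replicate 1 or MCTP replicate 1, of Otub1 and Gsk3b without any library other than MCTP replicate 2, of Pim1 without control replicates 1 or 2 or MCTP replicates 1 or 3 (adjusted p of 0.0535 to 0.168). Pim1 differed between shNsd2 and MCTP by -0.50 (SE 0.0474, limma adjusted p = 2.47e-04).

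In the polycomb complex that holds Mga and Max, 3 of 13 subunit genes rose and 3 fell with shNsd2 (median 0.04, but -0.03 without control replicate 3 and -0.02 without shNsd2 replicate 3), and 2 rose and 3 fell with MCTP (median -0.16). Both shares were near those of all genes (47.8% and 35.2%), and the 6 calls with shNsd2 were 3 in one fit of all 9 libraries, the 5 with MCTP 3 with the replicate number as a block. All genes called fell as well, from 5836 to 4320 in that fit and from 4305 to 3399 with the block. L3mbtl2, a chromatin reader of the complex, rose under both conditions, by 0.38 with shNsd2 (SE 0.0378, limma adjusted p = 8.01e-05) and by 0.30 with MCTP (SE 0.0746, limma adjusted p = 0.0185). Its values were 10.11, 10.18 and 10.11 in control, 10.53, 10.53 and 10.48 with shNsd2 and 10.48, 10.28 and 10.55 with MCTP. With shNsd2 Wdr5 (0.18, SE 0.0381) and Tfdp1 (0.11, SE 0.0396) rose and Rybp (-0.25, SE 0.0570), Tfdp2 (-0.23, SE 0.0449) and Yaf2 (-0.17, SE 0.0434) fell. With MCTP E2f6 rose (0.18, SE 0.0490) and Cbx3 (-0.53, SE 0.138), Tfdp2 (-0.32, SE 0.0999) and Pcgf6 (-0.22, SE 0.0680) fell. Cbx3 has processed copies that can share its reads. Subunit genes past the threshold with MCTP numbered 0, 0 and 1 without control replicates 1, 2 and 3, and 0, 9 and 2 without MCTP replicates 1, 2 and 3. Calls with MCTP were lost for single left-out libraries: that of L3mbtl2 and E2f6 without control replicates 1, 2 or 3 or MCTP replicate 1, of Pcgf6 and Tfdp2 without any library other than MCTP replicate 2, of Cbx3 without control replicates 1 or 2 or MCTP replicates 1 or 3 (adjusted p of 0.0519 to 0.133). With shNsd2 calls were lost for single left-out libraries: that of Tfdp1 without control replicates 2 or 3 or shNsd2 replicates 1, 2 or 3, of Yaf2 without shNsd2 replicate 2 (adjusted p of 0.0512 to 0.153).

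Over the 10 lists together and without Mycl, 121 of 184 genes tested passed with shNsd2, 75 with MCTP and 105 between them. These are 65.8%, 40.8% and 57.1%, where 47.8%, 35.2% and 43.2% of all genes passed. The MCTP number was 34, 30 and 39 without control replicates 1, 2 and 3, and 32, 118 and 46 without MCTP replicates 1, 2 and 3, so the calls of single listed genes with MCTP rest on which libraries were read.

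The pattern of Mxd4 over the 9 libraries was most like that of 5 genes out of 3518 that ranged over at least 0.5 log2 units: the histone gene Hist1h2bc (Pearson r = 0.998), the carboxylesterase gene Ces2e (0.998), the epoxide hydrolase gene Ephx1 (0.998), Sytl1 (0.997) and Sbsn (0.997). Each was high in the MCTP libraries alone, as the choice of Mxd4 brings with it. Their differences between MCTP and control were 0.75, 3.05, 1.51, 1.79 and 1.09. Hist1h2bc has near-identical copies that can share its reads. For Myc the closest genes were Hs6st1 (r = 0.994), Arhgef2 (0.993), Cdr2l (0.993), Zfp598 (0.983) and Slc25a33 (0.983), all lower with MCTP than in control (-0.29, -0.27, -0.47, -0.25 and -0.48) and higher with shNsd2 (0.21, 0.17, 0.34, 0.23 and 0.20). By Spearman correlation 6 genes tied at the highest value for each of Mxd4 and Myc, so which 5 are nearest is arbitrary. Of the 5 listed, 1 was shared for Mxd4 (Ces2e) and 2 for Myc (Hs6st1 and Arhgef2). The 9 libraries form 3 groups, so these values describe group patterns, with no p.

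Mxd4 and Nsd2 lie on the same chromosome. In GENCODE M21 (GRCm38, which is not the mm9 build named in the submitters' processing notes) Nsd2 spans chr5:33820725-33897975 on the plus strand and Mxd4 chr5:34173883-34187720 on the minus strand, 275907 bases apart. Other genes with values from this stretch gave log2 fold changes of 0.15 (Nelfa, listed as Whsc2), 0.01 (Gm1673) and 0.19 (Haus3, which adjoins Mxd4) with shNsd2, and of -0.14, 0.00 and -0.32 with MCTP, named here for position only.

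The promoters of the members were searched for the E-box CACGTG, the site that Myc-Max, Mxd-Max and Mlx pairs bind, because it shows which members carry it in their own upstream region. RefSeq promoters (GRCm38.p6) matched 9 members by symbol, in 11 entries. Myc matched no entry and was not searched. In the 250 bases before the start, 3 of these members (Mxd4, Mnt and Mlx) held the 6 letters, which read the same on both strands, where 6.86% of 27025 genes did. First bases of the site lay 219 bases before the start in Mxd4, 123 in Mnt and 40 in Mlx. The related CACGCG, searched on both strands, was found in 1 member (Mga), against 8.65% of genes. A match is a description of letters and not a binding site. The 3 sequences that hold the E-box are given 5′ to 3′ on the strand of the gene, with the E-box in capitals. They cover chr5:34187711-34187960 on the minus strand for Mxd4, and chr11:74830674-74830923 and chr11:101087040-101087289 on the plus strand for Mnt and Mlx.
Mxd4: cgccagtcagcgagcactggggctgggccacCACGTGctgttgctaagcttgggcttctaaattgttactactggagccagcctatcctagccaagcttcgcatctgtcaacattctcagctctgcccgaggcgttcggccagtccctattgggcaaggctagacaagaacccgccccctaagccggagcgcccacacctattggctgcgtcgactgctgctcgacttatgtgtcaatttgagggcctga
Mnt: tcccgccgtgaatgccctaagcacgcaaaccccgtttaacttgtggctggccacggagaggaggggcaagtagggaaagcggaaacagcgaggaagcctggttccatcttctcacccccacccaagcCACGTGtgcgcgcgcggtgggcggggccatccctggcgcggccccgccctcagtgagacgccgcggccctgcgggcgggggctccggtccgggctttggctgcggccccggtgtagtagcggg
Mlx: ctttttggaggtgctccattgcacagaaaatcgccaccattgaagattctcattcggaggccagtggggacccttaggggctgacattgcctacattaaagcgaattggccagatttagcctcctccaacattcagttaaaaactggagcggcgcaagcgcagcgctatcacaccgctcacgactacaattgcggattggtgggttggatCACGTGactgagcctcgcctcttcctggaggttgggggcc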

How the data were processed

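RNA-seq values of 9 libraries of mouse NPK cells, 3 each of control, MCTP and shNsd2, were read from the deposited table. The deposited values are on a log2 scale and variance-stabilised; the labels name bcl2fastq 1.8.4, TopHat, Cufflinks, DESeq, DESeq2 and mm9, without the role of each. The table holds 12842 genes, its depth is unknown, and 3 of its columns have no sample and were left out. Groups follow the titles. Genes were kept where 3 or more of the 6 libraries compared exceeded 3.78, the median of the lowest 10% of values. Each comparison was fitted by limma 3.58.1 (eBayes with a mean-variance trend, R 4.3.3) on its 6 libraries, with p adjusted by Benjamini-Hochberg across the genes tested, a threshold of 0.05 and two-sided p; intervals are 95%. The comparisons were shNsd2 against control, MCTP against control, and shNsd2 against MCTP. The method was tested on simulated data. Tables and plots used Python 3.11.15 and matplotlib 3.10.9.

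Genes named are the 10 members, Nsd2, in each list, by comparison, up to 3 genes past the threshold each way, taken by size of change, and the 5 genes most correlated with Mxd4 and with Myc over the 9 libraries among those that range over at least 0.5. Other genes named (neighbours on the chromosome, and markers outside this rule) were chosen for position or cell type. Members and lists were chosen with earlier results of these data known. Lists were network relatives, corepressors of Mxd and Mnt, Myc coactivators and Miz1, Myc protein turnover, polycomb partners of Mga and Max, Myc targets in ribosome biogenesis, metabolism and cell cycle, Myc-repressed genes, targets of Mlx and Mondo, and markers (luminal, basal, mesenchymal, immune, endothelial, fibroblast, neuroendocrine). Alternatives were no filter, one fit of all 9 libraries, the replicate number as a block, each library left out, quantile normalization, median centring, no mean-variance trend, a lowess correction for transcript GC content (span 0.3), Spearman for Pearson correlation and, chosen after seeing the data, leaving out control replicate 1, MCTP replicate 2 and shNsd2 replicate 3 together. GENCODE M21 gave lengths, GC content and positions.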

Additional observations from a re-analysis of the deposited data

Results flagged for a closer look

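The effects of shNsd2 and MCTP on 4 genes differed by the direct limma test of the 2 treatments, in which the control libraries cancel. The effect of shNsd2 minus that of MCTP was 0.48 for Myc, -0.35 for Mlx, 0.60 for Mga and -0.53 for Nsd2 (Whsc1), with every shNsd2 library on 1 side of every MCTP library for each gene. By the same test 43.2% of all 12217 genes passed, and 55.0% did not overlap, so 3 of 8 members is no larger a share than that of all genes. The limma adjusted p was 2.69e-04, 0.00686, 0.0190 and 4.24e-04. The difference in Mga missed the threshold without shNsd2 replicate 3 (adjusted p = 0.0677) or MCTP replicate 1 (0.0815), within 1.14e-07 to 0.0815 over the alternatives. The causes of these differences were not tested.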

How the results depend on the processing

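For the members and Nsd2, 420 alternative values of 30 results were computed, of which 363 kept the direction and, where a test was run, the side of the threshold, 13 lost a call, 35 gained one and 9 changed sign. For other named genes, 1829 of 2002 values of 143 results did so, 167 lost a call, 5 moved beyond the spread and 1 changed sign. Sign changes were all in MCTP against control and in values near 0. Mxd1 (-0.0208 to 0.0699 with single libraries left out) was -0.00526 without control replicate 1, -0.0208 without control replicate 2, -0.00599 without MCTP replicate 3 and -0.0185 with the GC correction. Mnt (-0.0532 to 0.0547) was -0.0532 without control replicate 1, -0.0184 without MCTP replicate 1, -0.0261 without MCTP replicate 3, -0.0998 with the GC correction and -0.00190 without the 3 libraries that stood apart. Mlxip was 9.18e-04 with quantile normalization. The cause was not tested.

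With single libraries left out, genes called numbered 4340 to 6018 for shNsd2 against control, 2046 to 7384 for MCTP against control and 3391 to 7781 for shNsd2 against MCTP. Listed genes called, here with Mycl counted (122, 75 and 106 with all libraries), numbered 107 to 132, 30 to 118 and 77 to 133. Members not overlapping numbered 5 to 7, 4 to 7 and 7 to 8. Without the 3 libraries that stood apart, 8, 7 and 9 members did not overlap in the 3 comparisons, where 80.2%, 82.9% and 82.0% of all genes did not. MCTP then called 7575 genes and 119 listed genes. Spearman correlation shared 1 of the 5 genes nearest Mxd4, with 6 genes tied. The causes were not tested.

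A block for the replicate number gave 4515, 3399 and 3794 genes called, with 108, 57 and 83 listed genes, Mycl counted. Deviations from the group mean were correlated across genes between libraries of different groups. For same-numbered libraries the mean correlation was -0.2502, -0.1840 and -0.3601 in the 3 comparisons. It was 0.1551, 0.1417 and 0.2262 for libraries of other numbers. The library that stood apart by GC content has a different number in each group, which enters these values. They therefore cannot show whether equal numbers were paired.

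The table gives no counts, so what depth limits could not be read, and low genes are drawn together by the transform.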
